A study of Mus musculus with 31 samples.

Results

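The comparison described here set CD11b+ microglia of 13-month-old male mice homozygous for the P522R substitution in PLCγ2 (A-/Pki/ki, hereafter KI) against those of male wild-type mice (A-/Pwt/wt, hereafter WT). It was made up of every male CD11b+ library, 4 KI (mice 84, 104, 136 and 139) and 3 WT (mice 94, 101 and 102), which is 7 of the 31 libraries of the series. None of these 7 mice carried the APP/PS1 transgene, so both groups were without amyloid pathology, and all 7 libraries carried the same batch tag. The knock-in line had been made with CRISPR/Cas9 on the C57BL/6J background, while the strain of the sequenced WT mice, and whether they were littermates, is not given in the sources used here. The series also held female CD11b+ libraries (7 A-/Pwt/wt, 4 A+/Pwt/wt and 4 A+/Pki/ki, where A+ is the APPswe/PS1dE9 transgene driven by the mouse prion protein promoter) and female temporo-occipital cortex libraries. CD11b+ cells were pulled from dissociated whole brain with magnetic beads, and polyA RNA was sequenced. Results are described over the 16373 of 55401 annotated genes that had 10 or more counts in 3 or more of the 7 libraries.

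PLCγ2 is a phospholipase of immune cells that cleaves a membrane phosphoinositide into diacylglycerol and inositol trisphosphate, and so couples surface receptors to protein kinase C and to calcium release. In the brain it is found mainly in microglia, where it acts below TREM2, its adaptor TYROBP and the kinases SYK and BTK. The P522R variant of human *PLCG2* is known as a mild gain-of-function allele linked to a lower risk of Alzheimer's disease.

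The codon that the knock-in line changes is shown here because it defines the 2 groups. In the coding sequence of mouse *Plcg2* (Gencode, GRCm38, plus strand) codon 522 lies in exon 17 of 33 at chr8:117589849-117589851, and the reference sequence around it, spliced from exons 16 and 17 and with codon 522 in capitals, reads as follows.
Plcg2 codon 522 with 30 bases on each side: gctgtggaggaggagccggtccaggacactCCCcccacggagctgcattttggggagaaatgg
The reference codon encodes proline. The deposited values are counts per gene and do not show which allele a library carried, so the genotype labels could not be checked at the codon.

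*Plcg2* itself was measured in every library. Levels are given as CPM, the counts per 1000000 counts of the library after TMM scaling, always in the order WT 94, 101 and 102, then KI 84, 104, 136 and 139. *Plcg2* stood at 247.1, 247.2 and 248.1 CPM in WT and at 213.7, 213, 170.6 and 173.7 CPM in KI. Every KI library was below every WT library, and the KI libraries 136 and 139 were the lowest. The difference on the log2 scale was -0.36 ± 0.11 (SE, n = 4 against 3) and did not pass the threshold (adjusted p = 0.058, quasi-likelihood test of edgeR across all 16373 genes with Benjamini-Hochberg adjustment). In a bulk preparation fewer microglia in the library and less RNA per microglial cell cannot be told apart.

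The libraries held 16229831 to 19946001 counts on genes. The 18 microglia markers were present in all of them and summed to 45167 to 47692 CPM in WT and 26134 to 46336 CPM in KI, with KI 104 the highest of the KI libraries. Genes of the microglial response to amyloid were far below their level in the transgenic mice: *Cst7* was at most 30.2 CPM and *Itgax* at most 35.1 CPM in KI without TMM scaling, against at least 472.4 and 177.2 CPM in the 8 A+ CD11b+ libraries. The 27 neuron markers summed to 317 to 423 CPM in WT and 946 to 1916 CPM in KI, the 18 astrocyte markers to 1513 to 1916 and 2375 to 4406 CPM, and the 15 oligodendrocyte markers to 19760 to 24119 and 28035 to 57142 CPM. Each of the 27 neuron markers had a count in every male library, WT and KI alike. Mitochondrially encoded genes took 3.97 to 5.02% of counts in WT and 7.40 to 12.8% in KI. The 7 female A-/Pwt/wt CD11b+ libraries spanned 574 to 4514 CPM for the neuron markers and 5.10 to 24.5% for mitochondrial counts, so the 3 male WT libraries were the low end of the WT mice in the series for both.

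**Figure D1:**
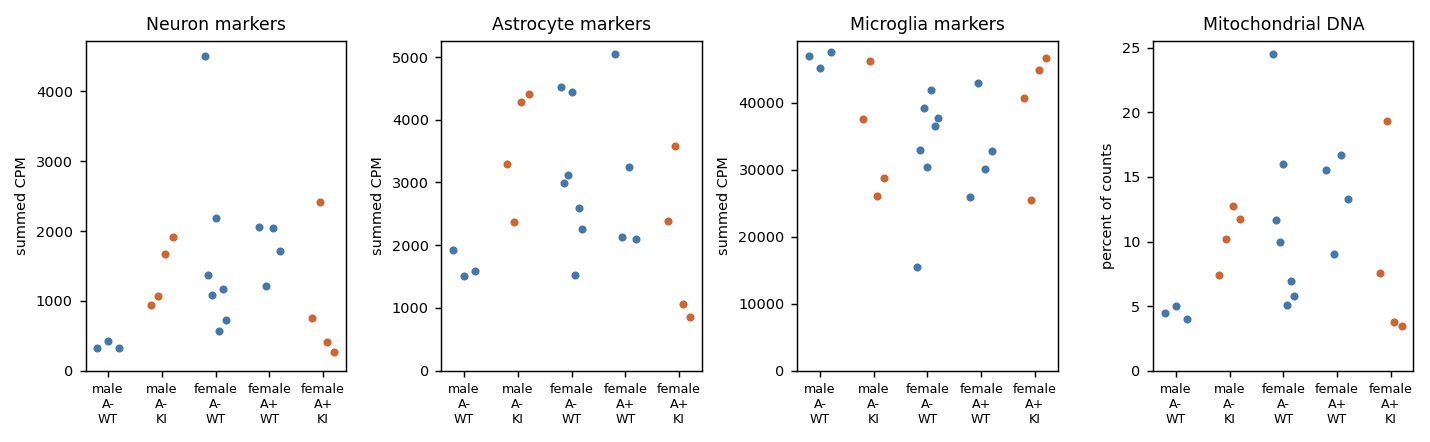
Summed CPM of the neuron, astrocyte and microglia markers and percent of counts on mitochondrially encoded genes in each CD11b+ library, 1 point per library, by sex, transgene (A- or A+) and PLCγ2 genotype. The 3 male WT libraries sit together at 317 to 423 CPM for the neuron markers, below all 4 male KI libraries and below all 7 female A-/Pwt/wt libraries.

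Between KI and WT, 2685 of 16373 genes (16.4%) passed the threshold of an adjusted p of 0.05, of which 1824 (11.1%) were higher and 861 (5.26%) lower in KI. Groups did not overlap for 5038 genes (30.8%), 2522 with KI higher and 2516 with KI lower (15.4% each). The median log2 difference over all genes was -0.00. Of the variance between libraries 61.7% lay on the first principal component, which put the WT libraries at -39.7 to -31.2, KI 104 at 2.00, KI 84 at 12, KI 136 at 41.6 and KI 139 at 48.2. When all 5 CD11b+ groups were fitted together, so that the spread of the female libraries was included, 0 genes passed the same test, with 2151 genes at an unadjusted p under 0.05. Without KI libraries 136 and 139, a setting chosen after the data were seen, 665 genes were higher and 257 lower.

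The kind of gene that differed was described with libraries that the comparison did not use. Genes were called CD11b-enriched where their mean CPM in CD11b+ cells of A+/Pwt/wt females was at least 8 times that in cortex of the same group, and cortex-enriched where it was at least 8 times lower. Of the 1028 CD11b-enriched genes tested 202 (19.6%) fell and 13 (1.26%) rose, with a median log2 difference of -0.37. Of the 1162 cortex-enriched genes 669 (57.6%) rose and 1 fell, with a median of 1.33. The 1 that fell was *Pde1b*, a calcium- and calmodulin-dependent phosphodiesterase, at 84.0, 75.9 and 89.3 CPM in WT and 46.9, 64.6, 61.3 and 57.2 CPM in KI (log2 difference -0.53 ± 0.12). Cortex-enriched genes were 36.7% of all genes that rose, and CD11b-enriched genes were 23.5% of all that fell. The 14183 genes between these classes held 1142 rises and 658 falls, with a median of -0.01.

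**Figure D2:**
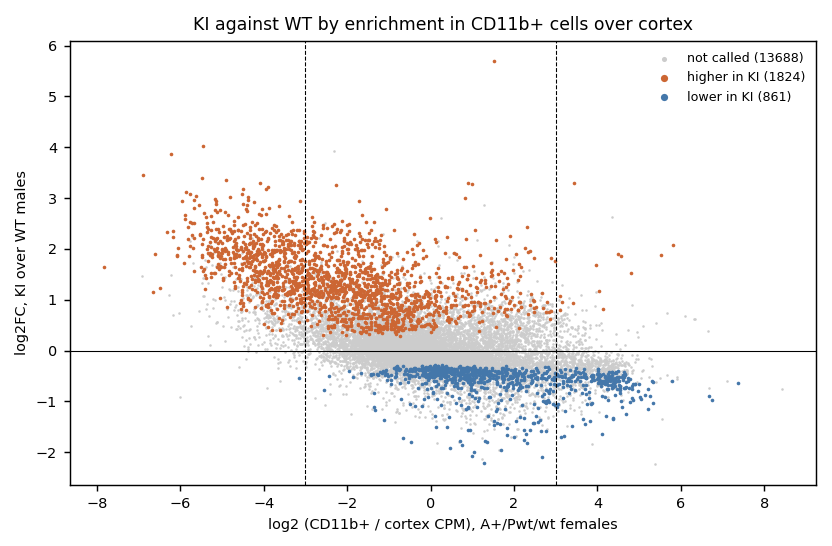
Log2 difference between KI and WT males (y axis) against log2 of the ratio of mean CPM in CD11b+ cells to cortex of A+/Pwt/wt females (x axis), 1 point per gene. Dashed lines mark the 8-fold limits of the classes; genes to the left of them rose in 669 of 1162 cases, and genes to the right had a median of -0.37.

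Because CD11b-enriched genes as a class lay below 0, the libraries were also scaled on the CD11b-enriched genes alone, and the counts of calls below are given under both scalings. That scaling centres this class by construction (median -0.01) and moves the median of all genes to 0.36. With it 29.5% of genes passed, 4769 (29.1%) higher and 64 (0.391%) lower. All 64 were also lower under the scaling on all genes. As the second scaling shifts genes upward, this overlap follows from the shift and is no second check. Both scalings are relative, so neither gives the amount of RNA per cell.

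Among the 26 genes of PLCγ2 signalling, from receptor adaptors to calcium-dependent effectors, 7 fell and 0 rose, with a median log2 difference of -0.35. Over all genes 5.26% fell. Of the 26, 20 were CD11b-enriched, a class in which 19.6% fell with a median of -0.37, so the list median was near that of the class. The list covers the receptor *Trem2*, kinases, scaffolds and the targets of diacylglycerol and calcium. *Prkcd*, which encodes the diacylglycerol-activated protein kinase C delta, stood at 518, 505.3 and 509 CPM in WT and at 364.5, 390.1, 317.3 and 313.3 CPM in KI, without overlap (-0.56 ± 0.11, adjusted p = 0.013, edgeR). *Inpp5d*, which encodes the inositol phosphatase SHIP1, stood at 879.4, 862.5 and 883 CPM in WT and at 615.6, 729.3, 540.5 and 524.5 CPM in KI (-0.54 ± 0.14, adjusted p = 0.031, edgeR). KI 136 and 139 were again the lowest and KI 104 the nearest to WT.

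The other members of this list that fell were *Nfatc2* (-0.54 ± 0.10) and *Nfatc1* (-0.37), transcription factors switched on by calcineurin, the adaptor *Pik3ap1* (-0.51 ± 0.12), the inositol trisphosphate receptor *Itpr2* (-0.42 ± 0.09) and the Ras exchange factor *Rasgrp3* (-0.34 ± 0.09). The genes closest to the receptor did not pass. *Trem2* stood at 1011, 1023 and 1027 CPM in WT and at 795.5, 1322, 615.4 and 666.9 CPM in KI, so that KI 104 was above and the other KI libraries below WT (-0.26 ± 0.25, adjusted p = 0.49, edgeR). *Tyrobp* (-0.20 ± 0.22), *Btk* (-0.30 ± 0.15) and *Syk* (-0.53 ± 0.17, adjusted p = 0.064, edgeR) did not pass either. Scaled on CD11b-enriched genes, 0 of the 26 passed, the median was -0.00 and *Rasgrp3* was at 0.04.

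Of the 14 subunits and regulators of phosphoinositide 3-kinase tested, 3 of them CD11b-enriched, 4 fell and 0 rose (median -0.26). Of all genes 5.26% fell, and of CD11b-enriched genes 19.6%. The 4 were the leukocyte catalytic subunits *Pik3cg* and *Pik3cd*, the regulatory subunit *Pik3r5* and the adaptor *Pik3ap1*. *Pik3cg* stood at 205.2, 207.4 and 213.2 CPM in WT and at 146.4, 164.6, 125.9 and 122.2 CPM in KI (-0.58 ± 0.12, adjusted p = 0.013, edgeR). *Pik3cd* stood at 261.5, 262.3 and 275.1 CPM in WT and at 187.2, 194.1, 171.5 and 163.9 CPM in KI (-0.57 ± 0.10, adjusted p = 0.0068, edgeR). For both genes the groups did not overlap. Scaled on CD11b-enriched genes, *Pik3cg* was at -0.23 and *Pik3cd* at -0.21, neither past the threshold, and the list held 1 higher gene, 0 lower and a median of 0.11.

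Of 20 transcription factors that hold microglial and macrophage identity, 11 of them CD11b-enriched, 9 fell and 0 rose. The share that fell was 19.6% in the CD11b-enriched class and 5.26% over all genes. The median was -0.38 (-0.02 with the second scaling, where 0 passed), beside -0.37 for all CD11b-enriched genes. All 3 MEF2 factors tested, which bind the enhancers of microglial genes, were among those that fell. *Mef2a* stood at 486.3, 472 and 449.3 CPM in WT and at 286.8, 348.5, 315.3 and 299.5 CPM in KI (-0.59 ± 0.11, adjusted p = 0.0086, edgeR). *Mef2c* stood at 329.1, 333.4 and 313.7 CPM in WT and at 239.2, 249.2, 221.6 and 221.5 CPM in KI (-0.48 ± 0.10). *Mef2d* (-0.34 ± 0.10) was below 0 under the scaling on all genes and at 0.03 with the second.

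The other factors that fell included *Runx1* (-0.65 ± 0.12), *Sall1* (-0.53 ± 0.13), *Ikzf1* (-0.48 ± 0.11), *Etv6* (-0.39) and *Smad3* (-0.37). *Sall1*, a repressor that keeps the resident microglial state, stood at 729.7, 734.4 and 791.5 CPM in WT and at 583.6, 566.4, 476.5 and 458.8 CPM in KI. *Spi1*, which encodes the myeloid factor PU.1, stood at 289, 293.2 and 291.4 CPM in WT and at 232.7, 340.8, 208.6 and 225.9 CPM in KI and did not pass (-0.21 ± 0.16).

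Surface receptors and other genes of homeostatic microglia were below 0 in 26 of 26 cases (median -0.40), but only 4 passed. All 26 were CD11b-enriched, a class in which 19.6% fell with a median of -0.37. Among the 4 were *Mertk*, a receptor for the uptake of dying cells (-0.59 ± 0.13), *Golm1* (-0.49 ± 0.11) and *Sall1*. *P2ry12*, the ADP receptor that steers microglial processes, stood at 2034, 1802 and 2097 CPM in WT and at 1508, 1915, 1195 and 1348 CPM in KI, with KI 104 inside the WT range (-0.41 ± 0.18, adjusted p = 0.16, edgeR). *Csf1r*, the receptor that microglia need to survive, was lower in every KI library without passing (-0.44 ± 0.22). With scaling on CD11b-enriched genes 0 of the 26 passed and the median was -0.06.

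Of 26 Toll-like and NOD-like receptors and their partners, 16 of them CD11b-enriched, 8 fell and 0 rose (median -0.41, beside -0.37 for all CD11b-enriched genes). In that class 19.6% fell, and over all genes 5.26%. *Tlr9*, an endosomal sensor of unmethylated DNA, stood at 126.6, 125.7 and 114.7 CPM in WT and at 79.8, 73.1, 73.6 and 60.2 CPM in KI (-0.77 ± 0.11, adjusted p = 0.0039, edgeR). *Nlrp1b*, an inflammasome sensor, stood at 49.0, 41.8 and 53.4 CPM in WT and at 20.9, 27.1, 17.7 and 23.1 CPM in KI (-1.12 ± 0.15, adjusted p = 0.0038, edgeR). In both genes all 4 KI libraries lay below WT, and KI 104 did not stand apart. Both remained lower with scaling on CD11b-enriched genes, at -0.41 and -0.76.

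*Tlr5* (-0.76 ± 0.15), *Tlr13* (-0.59 ± 0.14), *Nlrp3* (-0.57 ± 0.13), *Tlr1* (-0.53), *Tlr3* (-0.42 ± 0.11) and *Casp8* (-0.41 ± 0.10) made up the rest of the 8 and did not pass with the second scaling, which gave 2 lower and 1 higher gene and a median of -0.06. *Tlr4*, the receptor for lipopolysaccharide, stood at 40.9, 43.5 and 48.3 CPM in WT and at 51.8, 32.5, 32.2 and 35.5 CPM in KI, with overlap (-0.22 ± 0.17). *Tlr7* was lower in every KI library and did not pass (-0.50 ± 0.17, adjusted p = 0.081, edgeR).

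**Figure D3:**
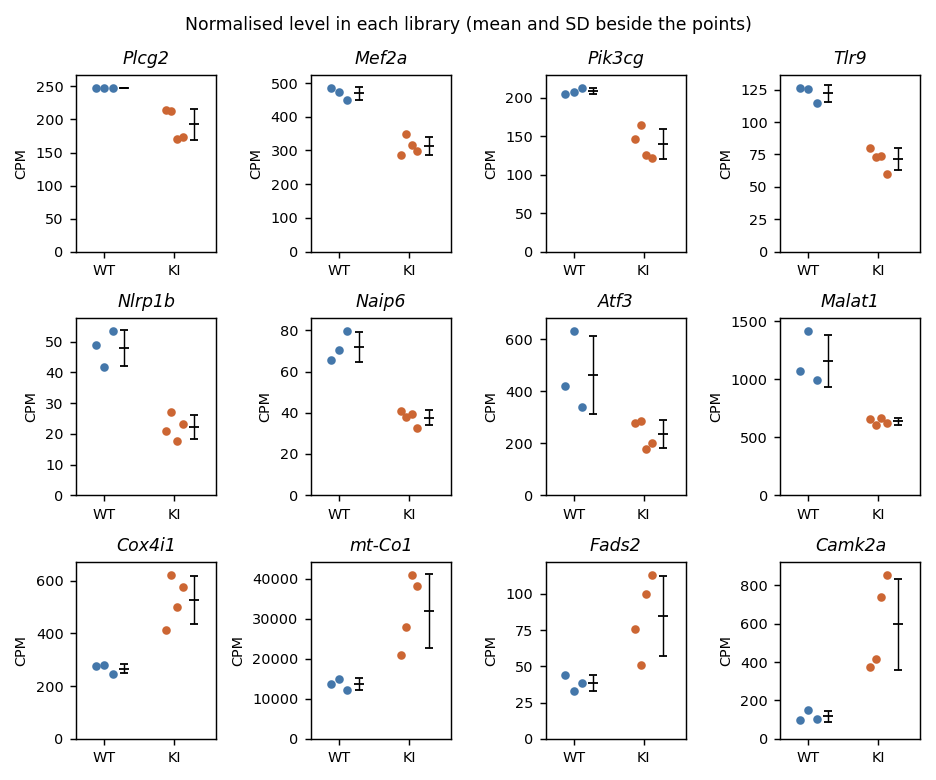
CPM of 12 genes in each WT (blue) and KI (orange) library, with the mean and SD beside the points. From *Plcg2* to *Malat1* the KI libraries lie below the WT libraries, and in the last row, from *Cox4i1* to *Camk2a*, above them.

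The 64 genes that fell under both scalings had no overlap between the groups, and 7 of them had 10 or more counts in the WT libraries only, so that they entered the test through the group where they were high. Of these 30 were CD11b-enriched, 34 lay between the classes, 0 were cortex-enriched and 35 were protein coding. Beside *Tlr9* and *Nlrp1b* they included members of the NAIP family, which sense bacterial proteins for the inflammasome. *Naip6* stood at 65.5, 70.4 and 79.6 CPM in WT and at 40.7, 37.9, 39.3 and 32.7 CPM in KI (-0.93 ± 0.11, adjusted p = 0.0037, edgeR). *Naip5* stood at 106.6, 110.1 and 119.6 CPM in WT and at 66.6, 80.0, 65.8 and 58.1 CPM in KI (-0.73 ± 0.12). The pseudogene *Naip3-ps1* fell too. The NAIP and NLRP1 genes have near-identical copies beside them, and reads can be shared or lost between copies, so these values are uncertain.

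Other genes among the 64 are named here after their values were seen. *Cd33*, a sialic acid-binding inhibitory receptor and an Alzheimer's disease risk gene in humans, stood at 833.1, 800.0 and 848.2 CPM in WT and at 466, 580.8, 542.8 and 439.7 CPM in KI (-0.71 ± 0.13, adjusted p = 0.0088, edgeR). *Ptprc*, which encodes CD45, stood at 338.8, 358.3 and 339.2 CPM in WT and at 232.8, 261.8, 209.2 and 191.6 CPM in KI (-0.63 ± 0.12). The groups did not overlap in either. *Cd22*, which also binds sialic acid (-0.73 ± 0.14), *Cd180*, a Toll-like receptor homologue (-0.68 ± 0.14), the cytokine receptor chain *Csf2rb* (-0.70 ± 0.14) and the adaptor *Fyb* (-0.74 ± 0.10) showed the same order of groups.

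*Atf3*, a stress-induced transcription factor also among the 64, stood at 418.7, 631.5 and 339.5 CPM in WT and at 278, 285.5, 179.4 and 201.3 CPM in KI (-0.97 ± 0.23, adjusted p = 0.023, edgeR). *Tnfaip3*, the NF-κB inhibitor A20, stood at 118, 157.2 and 105.6 CPM in WT and at 81.6, 78.9, 53.9 and 55.8 CPM in KI (-0.91 ± 0.19). *Rgs1*, a brake on chemokine receptors, fell as well (-0.88 ± 0.15), and WT 101 was the highest library for all 3 genes. Further members were the glycolytic regulator *Pfkfb3* (-0.77 ± 0.12), the sodium-calcium exchanger *Slc8a1* (-0.66 ± 0.09), the potassium channel *Kcna3* (-1.73 ± 0.27, at 3.37 to 5.94 CPM in WT and 1.12 to 1.55 CPM in KI) and the nuclear RNA *Malat1*.

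*Malat1* stood at 1076, 1416 and 993 CPM in WT and at 657.4, 603.4, 665.7 and 620.2 CPM in KI (-0.87 ± 0.15, adjusted p = 0.0067, edgeR). It is a long non-coding RNA kept in nuclear speckles, where splicing factors gather. Of 26 genes of splicing and nuclear speckles 8 fell and 0 rose (median -0.24), among them the speckle scaffolds *Srrm2* (-0.62 ± 0.16) and *Son* (-0.56). Of 28 chromatin regulators 6 fell and 0 rose (median -0.34), among them *Tet2* (-0.74 ± 0.15) and *Tet3* (-0.69 ± 0.11), which oxidise methylated cytosine, the DNA methyltransferase *Dnmt3a* (-0.54) and the remodeller *Chd9* (-0.66). With scaling on CD11b-enriched genes only *Malat1* of both lists was lower, 3 splicing genes and 0 chromatin regulators were higher, and the medians were 0.12 and 0.04. Of all genes 5.26% fell with the first scaling. With the second 29.1% of all genes were higher and their median was 0.36.

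Of 327 non-coding or unassigned genes that lie inside another gene on the same strand 38 fell (11.6%), 7 rose and 282 did not pass, with a median of -0.58. Of all genes 5.26% fell. The second scaling gave 8 lower and 12 higher with a median of -0.21. An example is *Gm44667*, inside *Mef2a*, at 23.6, 21.7 and 23.9 CPM in WT and 7.12, 3.95, 14.1 and 10.3 CPM in KI (-1.38 ± 0.33). *Gm45220*, inside *Picalm*, stood at 8.68, 8.53 and 8.05 CPM in WT and at 3.68, 3.83, 4.85 and 3.59 CPM in KI (-1.08 ± 0.17). In both the groups were separate, while *Picalm* itself did not pass (-0.37 ± 0.15). Among CD11b-enriched genes the share that fell with the first scaling was larger for genes of greater summed exon length. It went from 10.3% of 97 genes under 1 kb to 36.2% of 69 genes over 8 kb. With the second scaling 3 of these 97 and 2 of these 69 were lower, beside 16 of 335 genes of 4 to 8 kb, so the 2 ends did not differ in this way. Counting did not use strand, so a gene and its antisense neighbour cannot be told apart.

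Few genes that mark disease-associated microglia passed. Of 27 tested, 1 fell and 0 rose, with a median of -0.23 beside -0.37 for all CD11b-enriched genes. With the second scaling the calls turned, to 3 of 27 higher and 0 lower with a median of 0.12. Over all genes that scaling gave 29.1% higher and a median of 0.36, so the turn was not particular to this list. The one that fell was *Csf1*, a microglial growth factor, at 54.3, 78.8 and 51.4 CPM in WT and 39.9, 40.8, 43.4 and 30.7 CPM in KI (-0.67 ± 0.17), and with the second scaling it was at -0.30 and did not pass. *Apoe* stood at 3028, 3080 and 2202 CPM in WT and at 3229, 3763, 2674 and 2987 CPM in KI, with overlap (0.19 ± 0.20, adjusted p = 0.53, edgeR). *Cst7* was at 19.8 to 27.9 CPM in WT and at 13.8, 32.7, 8.48 and 6.32 CPM in KI, where KI 104 stood above and KI 136 and 139 below all WT libraries.

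The 20 genes of MHC and antigen presentation (median -0.18) and the 16 complement genes (median -0.27) held 0 calls, while the second scaling gave 1 higher gene in each and medians of 0.19 and 0.06. Of 31 lysosomal genes only *Mcoln1*, the lysosomal calcium channel, fell (-0.32 ± 0.09), and with scaling on CD11b-enriched genes its difference was 0.05, with 3 lysosomal genes higher and 0 lower. Of 31 interferon-response genes 4 fell and 0 rose (median -0.06), where 5.26% of all genes fell. With the second scaling the calls turned, to 4 of 31 higher and 0 lower (median 0.30), beside 29.1% of all genes higher (median 0.36). The 4 that fell with the first scaling, none of which passed with the second, were *Mx1*, an antiviral GTPase, at 19, 17.3 and 15.7 CPM in WT and 10.2, 10.6, 9.45 and 4.77 CPM in KI (-0.98 ± 0.24), *Ifi204* (-0.76 ± 0.22), *Ifit2* (-0.57 ± 0.14) and *Trim30a* (-0.40 ± 0.10). *Isg15* (0.30 ± 0.13) did not pass.

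Of 30 inflammatory cytokines, chemokines and regulators 2 fell, *Tnfaip3* and *Il1a*, and 0 rose (median -0.41, and with the second scaling 1 lower, 0 higher and -0.08). The share of all genes that fell was 5.26%. *Il1a* stood at 99.2, 129.3 and 92.6 CPM in WT and at 66.5, 84.6, 62.1 and 69.6 CPM in KI (-0.60 ± 0.14). *Il1b* was at 29.6, 58.6 and 22.2 CPM in WT and at 20.5 to 23.5 CPM in KI, and *Tnf* at 73.8, 99.1 and 35.6 CPM in WT and 36.2 to 52.9 CPM in KI. Both overlapped between the groups and neither passed. The immediate early genes *Fos* (-0.51 ± 0.27), *Egr1* (-0.50 ± 0.22) and *Jun* (-0.55 ± 0.19) did not pass either, and WT 101 was the highest library for each of the 3. Of the 22 immediate early genes tested *Atf3* and *Zfp36* fell and *Arc*, a dendritic RNA of neurons, rose. *Arc* went from 4.85, 5.47 and 6.42 CPM in WT to 28.4, 21.3, 36.9 and 43.1 CPM in KI (2.54 ± 0.25). With the second scaling *Arc* was higher and *Atf3* lower, and *Zfp36* did not pass (-0.29).

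**Figure D4:**
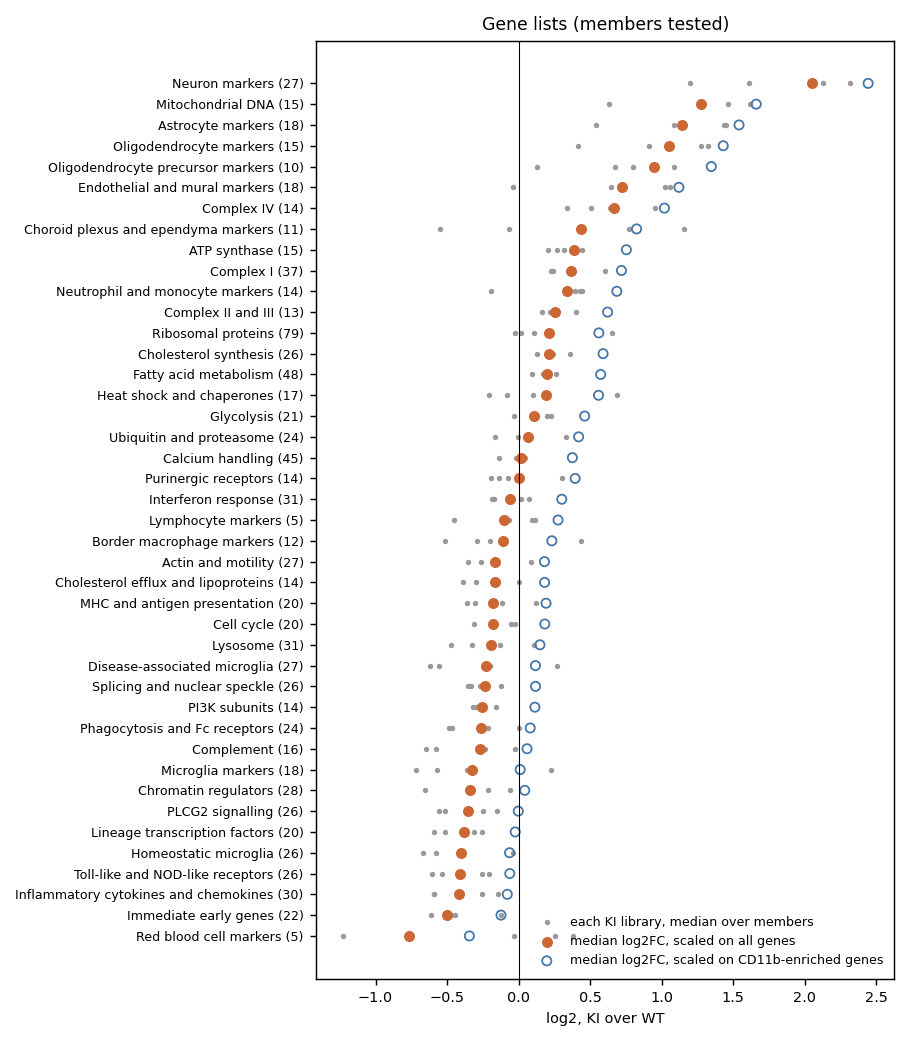
Median log2 difference between KI and WT for each gene list of 5 or more members chosen here, with the number of members tested in parentheses. Filled circles are scaled on all genes, open circles on CD11b-enriched genes, and small grey points are the median over members in each KI library relative to the WT mean; neuron markers are at the top with a median of 2.05, and lists of microglial genes lie below 0 with the first scaling and near 0 with the second.

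Oxidative phosphorylation draws on nuclear and mitochondrial genes. Of 37 subunits of complex I, which takes electrons from NADH, 14 rose and 0 fell (median 0.36). Of 13 subunits of complexes II and III 5 rose (median 0.26), of 14 of complex IV 8 rose (median 0.67), and of 15 of the ATP synthase 7 rose (median 0.39), with 0 falls. The second scaling gave 35, 13, 12 and 15 higher genes in the same order and 0 lower. Of all genes 11.1% rose with the first scaling and 29.1% were higher with the second, which moved their median to 0.36. None of these nuclear-encoded genes was CD11b-enriched or cortex-enriched. For the complex I genes the median log2 ratio of CD11b+ cells over cortex was -0.84. It was -0.90 for complexes II and III, -0.04 for complex IV and -0.75 for the ATP synthase.

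*Cox4i1*, a nuclear-encoded subunit of complex IV, stood at 275.3, 278.6 and 246 CPM in WT and at 411.3, 622.9, 499.8 and 575.1 CPM in KI (0.98 ± 0.15, adjusted p = 0.0054, edgeR). *Cox6a1* stood at 199.9, 214.7 and 183.7 CPM in WT and at 322.1, 576.3, 455.9 and 551.5 CPM in KI (1.26 ± 0.19). *Ndufb9*, of complex I, stood at 29.3, 26 and 24.8 CPM in WT and at 42.7, 82.0, 61.3 and 67.7 CPM in KI (1.25 ± 0.20). In all 3 the KI libraries were above WT, with KI 104 the highest and KI 84 the lowest of them. *Uqcr11* of complex III (0.87 ± 0.15) and *Atp5k* of the ATP synthase (0.78 ± 0.20) rose without overlap as well.

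Of the 15 genes of the mitochondrial DNA tested 14 rose (median 1.28), and 14 were higher with the second scaling. Their median log2 ratio of CD11b+ libraries over cortex was 1.80 in A+/Pwt/wt females. There the share of mitochondrial counts was higher in every CD11b+ library than in cortex, which had 4.02 to 5.58%. The male WT CD11b+ libraries, at 3.97 to 5.02%, overlapped this cortex range. Female CD11b+ libraries spanned 3.45 to 19.4% in A+/Pki/ki and 5.10 to 24.5% in A-/Pwt/wt. Whether these genes are more abundant in the CD11b+ cells themselves was not tested. *mt-Co1*, the catalytic subunit of complex IV, stood at 13649, 15070 and 12143 CPM in WT and at 21071, 27881, 41044 and 38174 CPM in KI (1.23 ± 0.35, adjusted p = 0.040, edgeR). *mt-Rnr2*, the large ribosomal RNA of mitochondria, stood at 3889, 5098 and 3507 CPM in WT and at 9330, 19409, 15764 and 19017 CPM in KI (1.93 ± 0.33). Here KI 84 was the nearest to WT in both. These genes rose in the same libraries as the neuron, astrocyte and oligodendrocyte markers, and the part of those cells in the rise was not tested.

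Ribosomal proteins gave a different picture. Of 79 tested 1 rose and 1 fell, *Rps10* (-0.84 ± 0.21), although 71 were above 0 (median 0.22). When scaled on CD11b-enriched genes 68 rose, beside 29.1% of all genes. The summed level of the list was 32990 to 36814 CPM in WT and 31764 to 47979 CPM in KI without TMM scaling, and the KI 104 value was far above the other KI libraries.

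KI 104 differed from the other KI libraries along gene length. Among 7681 genes above 20 CPM, its level over the mean of the other KI libraries had a median log2 ratio of 0.47 for 100 genes with under 1 kb of exons, 0.36 for 1 to 2 kb, 0.20 for 2 to 4 kb, -0.00 for 4 to 8 kb and -0.20 for 1811 genes over 8 kb. In KI 84, KI 136 and KI 139 the medians went from -0.18, -0.21 and -0.11 under 1 kb to 0.09, 0.11 and 0.02 over 8 kb. KI 104 was part of the reference for each of these libraries, so an opposite order follows in part from the calculation. Genes for ribosomal proteins and small respiratory subunits are short and were among those high in KI 104. Without KI 104 the comparison called 3286 genes higher and 2153 lower.

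Of 48 genes of fatty acid metabolism 9 rose and 1 fell (median 0.20), beside 11.1% and 5.26% of all genes. With the second scaling 24 were higher and 0 lower, beside 29.1% and 0.391% of all genes. *Fads2*, a desaturase of polyunsaturated fatty acids, stood at 44.2, 32.9 and 38.3 CPM in WT and at 75.5, 51.0, 99.8 and 113.3 CPM in KI (1.14 ± 0.25, adjusted p = 0.016, edgeR). *Scd2*, a desaturase abundant in brain and myelin-forming cells, stood at 395.1, 350.0 and 345.9 CPM in WT and at 623.5, 490.0, 864.6 and 884.4 CPM in KI (0.98 ± 0.21). KI 136 and 139 were the highest in both, and KI 104 the lowest of the KI libraries.

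*Fasn*, the fatty acid synthase, stood at 45.9, 48.1 and 47.7 CPM in WT and at 81.1, 50.6, 80.2 and 83.0 CPM in KI, where KI 104 was close to WT (0.64 ± 0.17). The fatty acid-binding proteins *Fabp5* (0.72 ± 0.19) and *Fabp7* (1.41 ± 0.22, a gene of astrocytes and progenitors) rose, from 6.18 to 10.4 CPM and 2.50 to 3.64 CPM in WT to 12.6 to 13.8 CPM and 6.69 to 9.60 CPM in KI. The 1 that fell was *Acsl4* (-0.37), which activates arachidonic acid. None of the 48 genes was CD11b-enriched.

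Of 26 genes of cholesterol synthesis 6 rose and 0 fell (median 0.21), beside 11.1% and 5.26% of all genes. With the second scaling 15 were higher and 0 lower, beside 29.1% and 0.391% of all genes. *Hmgcs1*, which makes the precursor of mevalonate, stood at 37.0, 37.2 and 37.3 CPM in WT and at 55.3, 56.4, 55.0 and 61.7 CPM in KI (0.62 ± 0.09, adjusted p = 0.0044, edgeR). The 4 KI values were close to one another and all above WT. *Idi1* rose from 3.48 to 5.35 CPM in WT to 7.08 to 9.37 CPM in KI (0.95 ± 0.21). In the opposite direction the cholesterol exporter *Abca1* (-0.51 ± 0.15), the lipoprotein receptor *Lrp1* (-0.48) and the cholesterol-esterifying enzyme *Soat1* (-0.34 ± 0.09) fell, and *Soat1* was at 0.02 with scaling on CD11b-enriched genes. Of the 14 genes of cholesterol efflux and lipoproteins 3 fell and 0 rose with the first scaling, and 0 were lower and 3 higher with the second.

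Of 21 glycolytic genes 4 rose and 2 fell, beside 11.1% and 5.26% of all genes. With the second scaling 14 were higher and 0 lower, beside 29.1% and 0.391% of all genes. *Hk2* (-0.46 ± 0.12) and *Hk3* (-0.43), the hexokinases of immune cells, fell, while *Hk1* (0.46), *Pfkm* (1.04), the astrocyte isoform *Aldoc* (1.53 ± 0.22) and the neuronal isoform *Eno2* (1.71 ± 0.23) rose. *Hk2* stood at 267.1, 269.5 and 263.9 CPM in WT and at 213.1, 221.7, 168.0 and 171.9 CPM in KI.

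Of 45 calcium genes tested 8 rose and 9 fell (median 0.01), beside 11.1% and 5.26% of all genes. Those that rose included *Camk2a*, *Itpka*, *Camk4*, *Camk2b*, *Atp2b2*, *Ryr2* and *Calm3*. *Camk2a*, the calcium-dependent kinase of excitatory synapses, stood at 99.6, 148.2 and 101.9 CPM in WT and at 376.5, 414.2, 739.2 and 855.1 CPM in KI (2.35 ± 0.32, adjusted p = 0.0038, edgeR). *Itpka*, which phosphorylates inositol trisphosphate in dendritic spines, stood at 1.41, 3.00 and 1.96 CPM in WT and at 6.69, 8.80, 10.2 and 12.2 CPM in KI (2.16 ± 0.31). The order of the KI libraries, 84 and 104 below 136 and 139, was that of the summed neuron markers, and the part of neuronal RNA in these rises was not tested.

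Those that fell were the exchanger *Slc8a1*, *Trpm2* (-0.60 ± 0.12), a calcium channel opened by oxidative stress, *Cacna1d* (-0.59), *Nfatc2*, *Camk1d* (-0.49), *Itpr2*, *Nfatc1*, *Trpm7* (-0.37) and *Orai2* (-0.31). *Trpm2* stood at 138.8, 125.8 and 147.1 CPM in WT and at 82.9, 108.8, 90.0 and 81.1 CPM in KI. With scaling on CD11b-enriched genes 14 of the 45 were higher, beside 29.1% of all genes, and only *Slc8a1* was lower. *Trpm7* (0.01) and *Orai2* (0.06) were above 0 with that scaling. Among the purinergic receptors *P2rx7*, the ATP-gated channel of microglia, fell (-0.46 ± 0.10) and the adenosine receptors *Adora1* (1.41) and *Adora2a* (1.03) rose, and the second scaling gave 3 higher and 0 lower of 14.

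The marker lists of the other brain cells moved together with these rises. All 27 neuron markers rose, with a median of 2.05 and a range from 1.16 to 2.75, and 23 of them were cortex-enriched. *Slc17a7*, the vesicular glutamate transporter of excitatory neurons, stood at 15.1, 19.5 and 12.4 CPM in WT and at 47.6, 60.8, 87.0 and 110.6 CPM in KI (2.29 ± 0.29). *Gad1*, of inhibitory neurons, stood at 2.23, 2.35 and 1.52 CPM in WT and at 6.26, 6.76, 9.97 and 13.3 CPM in KI (2.15 ± 0.32). Markers of both neuron classes rose, and no KI library overlapped WT.

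Of 18 astrocyte markers 17 rose (median 1.14), of 15 oligodendrocyte markers 11 rose (median 1.05), of 10 markers of oligodendrocyte precursors 3 rose (median 0.95), and of 18 endothelial and mural markers 6 rose (median 0.72). With the second scaling 27 neuron, 18 astrocyte, 15 oligodendrocyte, 4 precursor and 14 endothelial and mural markers were higher. The shares over all genes were 11.1% with the first scaling and 29.1% with the second. *Gfap* stood at 38.6, 27.7 and 33.9 CPM in WT and at 57.7, 66.8, 61.7 and 92.1 CPM in KI (1.06 ± 0.18). Markers of neutrophils and monocytes (14 tested), lymphocytes (5), red blood cells (5) and choroid plexus (11) held 0 calls, and of 12 markers of border macrophages *Siglec1* (-0.66) and *Stab1* (-0.46) fell. The second scaling gave 6 higher neutrophil and monocyte markers, 1 higher choroid plexus marker and 0 calls in the other 3 lists.

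The genes with the smallest p were *Arc*, *Plch2*, *Ncald*, *Bc1* and *Mt3*, and all 5 rose. The largest rises in the cortex-enriched class were *Lingo1* (2.77), *Cck* (2.75), *Kcnh3* (2.65), *Arc* and *Camkv* (2.48), which are neuronal genes. Of 49 genes that the study itself singled out in male KI microglia 26 rose and 11 fell (median 0.55), with 35 higher and 1 lower under the second scaling, and as they were picked on these same libraries their count is not independent evidence.

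The 13 CD11b-enriched genes that rose included several known from cells other than microglia. *Cbln3* and *Gabra6*, genes of cerebellar granule cells, and *Pcp2*, of Purkinje cells, are scarce in the temporo-occipital cortex that served as the reference. *Cbln3* stood at 4.12, 6.06 and 4.35 CPM in WT and at 10.7, 23.7, 27.9 and 19.1 CPM in KI (2.07 ± 0.32). *Bcas1* (1.17) is known from oligodendrocytes, *Ly6c1* (0.80 ± 0.20) from endothelium and *Cd177* (0.83 ± 0.25) from neutrophils. The others were *Prr18* (1.07), *Dao* (1.53), *Cnpy1* (1.69), *Fat2* (1.87), *Lhx1os* (3.29), *Stap2* (0.95) and *Gm37111* (0.93). *Lhx1os* was scarce, at 0.10, 0.12 and 0.27 CPM in WT and 0.91, 2.68, 1.10 and 1.92 CPM in KI. It met the count filter through the KI libraries only, so it entered the test through the group where it was high.

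A small number of genes split the KI libraries from one another, and these were picked out after their values were seen. In 19 genes neighbouring KI values lay more than 2 log2 units apart while the WT libraries were within 1 log2 unit. On chromosome 7 *Trim5*, *Trim12a*, *Trim30d*, *Gvin1* and *Gm1966* were at 0 to 0.62 CPM in KI 139 only. *Trim12a* stood at 52.8, 50.1 and 51.5 CPM in WT and at 40.7, 40.8, 46.8 and 0.62 CPM in KI. Between and beside them *Trim12c* (51.6 CPM in KI 139), *Trim30a* (57.4 CPM) and *Fam160a2* (31.1 CPM) were not lost. Other neighbours were reduced in KI 139 below the other KI libraries, *Trim34a* to 6.07 CPM, *Trim30b* to 3.41 CPM and *Gm8995* to 29.4 CPM.

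On chromosome 11 *Rpl26*, a ribosomal protein gene, stood at 421.5, 381.7 and 406.8 CPM in WT and at 392.8, 664.3, 13.5 and 242.1 CPM in KI, so that KI 136 had almost none. In the opposite direction *Gm15772*, a processed pseudogene on chromosome 5, stood at 1.31, 1.24 and 1.63 CPM in WT and at 1.63, 2.87, 192.7 and 94.1 CPM in KI. It passed the threshold as a rise (5.70 ± 1.63, adjusted p = 0.043, edgeR), although KI 84 and 104 lay near WT. Among the Gencode protein-coding transcripts *Gm15772* shared most 21-base words with *Rpl26*, and 436 of its 438 bases (99.5%) were identical to the transcript of that gene along an alignment without gaps.

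The 2 bases that differ are shown because, within these 438 bases, a read that covers neither of them matches both genes. Counted from 1 at the first base of *Gm15772*, they are C177T and T288C, with the base of *Rpl26* first. Each is given in capitals with 10 bases on both sides.
Rpl26 around position 177: aggttgttcgCggacactaca
Gm15772 around position 177: aggttgttcgTggacactaca
Rpl26 around position 288: caaccgtccaTgtgggcatcc
Gm15772 around position 288: caaccgtccaCgtgggcatcc
KI 136 and 139, the libraries with less *Rpl26*, were the ones with *Gm15772*. The counts do not show which bases the reads carried.

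Other genes of chromosome 11 split as well. *Nlrp1a* (0.19 CPM) and *Nlrp1c-ps* (0.32 CPM) were lowest in KI 136. *Cd300lf*, an inhibitory receptor of myeloid cells, was at 6.26 to 9.65 CPM in WT and at 2.92, 6.51, 105.4 and 74.8 CPM in KI. Mice 136 and 139 thus shared the high levels of *Gm15772* and *Cd300lf* and differed in the *Trim* genes. Whether these mice differed from WT in genotype outside *Plcg2* cannot be read from counts per gene and was not tested, which also bears on *Gm15772* and *Nlrp1b*.

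The same genes were compared in the female CD11b+ libraries without TMM scaling. *Gm15772* was over 50 CPM in 3 of 4 A+/Pwt/wt, 2 of 4 A+/Pki/ki and 0 of 7 A-/Pwt/wt libraries, and *Cd300lf* in 3, 3 and 0. *Rpl26* was at 14.5 CPM in the lowest A+/Pki/ki library and at 371.3 to 805.3 CPM in the 7 A-/Pwt/wt libraries. High *Gm15772* was thus measured in single mice of both A+ genotypes and in 2 male KI mice, and in none of the 10 A-/Pwt/wt mice. *Nlrp1b*, one of the 64 genes that fell under both scalings, lies beside *Nlrp1a*, and in females it spanned 10.5 to 56.6 CPM in A-/Pwt/wt alone.

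**Figure D5:**
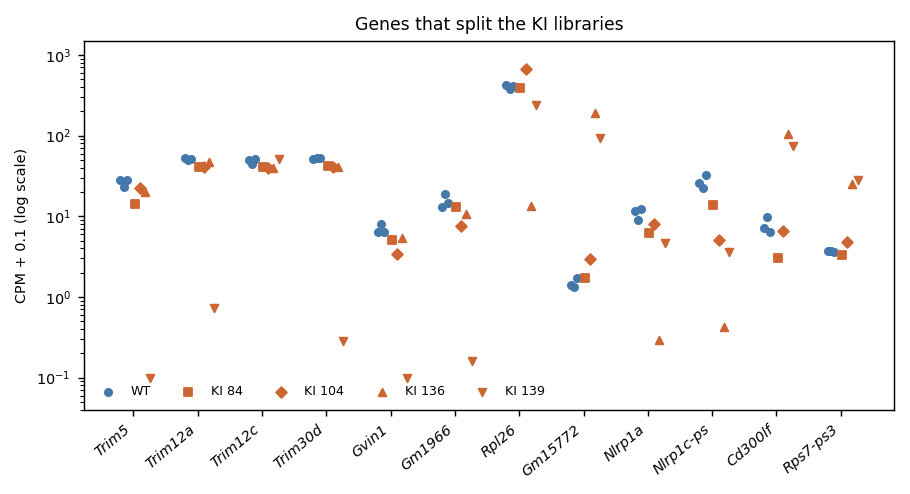
CPM plus 0.1 on a log axis for 12 genes in the WT libraries (blue) and the 4 KI libraries (orange, 1 symbol per mouse). KI 139 is near 0 for 5 genes of chromosome 7 but not for *Trim12c*, KI 136 is at 13.5 CPM for *Rpl26*, and KI 136 and 139 are both high for *Gm15772* and *Cd300lf*.

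The most alike comparison in the series, 4 A+/Pki/ki against 4 A+/Pwt/wt CD11b+ libraries of females, gave no call. On its own libraries 0 of 17039 genes passed the quasi-likelihood test of edgeR, with 575 at an unadjusted p under 0.05. The class medians had the opposite sign to those in males, at 0.18 for CD11b-enriched genes (males -0.37) and -0.65 for cortex-enriched genes (males 1.33). The median of the 26 PLCγ2 signalling genes was 0.15, that of the mitochondrial DNA -0.67 and that of the neuron markers -0.74. The summed neuron markers were 262 to 2418 CPM in A+/Pki/ki and 1206 to 2059 CPM in A+/Pwt/wt females, so the KI libraries held the less neuronal RNA there in 3 of 4 mice.

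The difference between the male and the female KI effects was tested as a contrast over these 15 libraries, and 0 of 17619 genes passed the same test, while 4664 had an unadjusted p below 0.05 and the lowest adjusted p was 0.14. For *Tlr9* the female difference was 0.16 and the difference of effects -0.90 ± 0.41. For *Mef2a* these values were 0.41 and -0.97 ± 0.28, for *Malat1* 0.48 and -1.32 ± 0.34, and for *Camk2a* -0.88 and 3.25 ± 0.92. Without the A+/Pki/ki female 335, 3474 genes were higher and 2725 lower in this contrast. Sex, transgene and batch tag differ together between the compared pairs and cannot be told apart.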

How the data were processed

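PolyA RNA of CD11b+ cells and of cortex was sequenced as paired 150-base reads. The authors trimmed reads with Trimmomatic 0.39, aligned them with STAR 2.7.9a to Gencode M25 (GRCm38) and counted uniquely mapped reads per gene, without strand, with featureCounts. The deposited tables hold raw counts, and the deposited variance-stabilized values are on a log2-like scale. Groups came from the sample labels. Each library carries the number of 1 mouse.

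Counts of the 7 male libraries (16229831 to 19946001 per library) were filtered to genes with 10 or more counts in 3 or more libraries, scaled by TMM and tested in R 4.3.3 by quasi-likelihood F tests from edgeR 4.0.16 (two-sided, Benjamini-Hochberg threshold 0.05, no fold limit). SE is the log2 difference divided by the square root of F. The pipeline was tested on simulated data. Classes used mean CPM plus 0.1. Positions, gene types and transcripts are of Gencode M21 (GRCm38), matched by gene ID for 16359 of 16373 genes. Columns of the authors' own comparisons were not used.

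Alternatives were the DESeq2 1.42.0 Wald test, limma 3.58.1 on the deposited log2-scale values, other scalings and filters, a fit of all 5 CD11b+ groups, and leaving out libraries. Named genes were *Plcg2*, genes the study named, the smallest p-values, the largest changes per class among genes of at least 5 CPM, and per list the called members of largest change and the most abundant members, and others were chosen after their values were seen. The comparison, the 44 gene lists and the rules were chosen with earlier results of these data known, so lists are described by counts and medians and carry no test. No protein sequence was used here, and some list members are not reported by name.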

Additional observations from a re-analysis of the deposited data

Results flagged for a closer look

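In 12 of 285 values examined over the 4 KI libraries (library measures, list levels and named genes) 1 library stood far from the other 3, its gap to the nearest of them taking more of the group's whole range than the 95% critical value of Dixon's ratio for 4 samples. Chance gives about 1 in 20 such groups. KI 104 was the library apart in most of them. It was the highest for *Ndufa2* (ratio 0.984), *Atp5j2* (0.97), *Tmsb4x* (0.93), *Cox7a2* (0.898), *Cst3* (0.883), *P2ry13* (0.874), *Uqcrh* (0.855), *Tlr13* (0.843) and the summed CPM of ribosomal proteins (0.842), and the lowest for *Fasn* (0.914). KI 139 was the lowest for *Wasf2* (0.894), a regulator of branched actin. KI 84 was the lowest for the share of counts on the 50 most counted genes (0.889), at 23.6% against 28.9 to 29.6% in the other KI libraries.

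*Tmsb4x*, an actin-binding peptide, shows the size of this: 2812, 2624 and 2742 CPM in WT and 2104, 3932, 1966 and 2043 CPM in KI. *Cst3*, among the most abundant microglial transcripts, stood at 26532 CPM in KI 104 and at 14015 to 15476 CPM in the other KI libraries, around the 18575 to 19653 CPM of WT.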

How the results depend on the processing

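The counts of higher and lower genes moved most with the libraries and the scaling. With scaling on CD11b-enriched genes 4769 genes were higher and 64 lower, with all 5 CD11b+ groups in 1 fit 0 and 0, and without KI 136 and 139, chosen after the data were seen, 665 and 257. The Wald test of DESeq2 gave 1302 lower. Size factors of DESeq2, filterByExpr, no filter, limma and scaling without the 50 most counted genes stayed within 1.5 times of both counts. Leaving out 1 library gave 783 to 3286 higher and 98 to 2153 lower genes: WT 102 gave 783 and 111, WT 94 1013 and 98, WT 101 1122 and 114, KI 139 1068 and 285, KI 136 1170 and 601, and KI 104 3286 and 2153. The 64 genes lower with scaling on CD11b-enriched genes became 3 to 167 (6 without WT 94, 3 without WT 101, 6 without WT 102, 27 without KI 84, 14 without KI 139, 167 without KI 104, settings chosen after the data were seen), and all 64 stayed below 0 without any 1 KI library. Without any 1 WT library 57 were tested and all 57 stayed below 0, since 7 had 10 or more counts in only 3 libraries, all WT. The 64 were picked as lower in these same libraries, without overlap between the groups. Leaving out 1 library could therefore hardly change their sign, and the kept sign is no evidence of stability.

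With scaling on CD11b-enriched genes 94 of all 2685 called genes changed sign, as did 29 of the 237 genes of the naming rule, 26 that had not passed and 3 that had, *Mcoln1* (0.055), *Mef2d* (0.031) and *Soat1* (0.020). Classes at 4-fold gave 49 rises and 323 falls among CD11b-enriched genes, 758 rises between the classes, and 1017 rises and 3 falls among cortex-enriched genes; classes from A-/Pwt/wt libraries gave 23 CD11b-enriched rises and 0 cortex-enriched falls. In the contrast of male and female KI effects the Wald test gave 818 higher and 367 lower genes. Leaving out 1 library gave 0 to 3474 higher and 0 to 2725 lower, the highest without A+/Pki/ki female 335, and 1 higher and 2 lower without male KI 104. The cause of these shifts was not tested. No paired analysis was possible because the groups share no mouse or replicate number.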
